A study of Mus musculus with 9 samples.

Results

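The genes described here encode the enzymes that make cholesterol and fatty acids and the factors that control them, 34 of the 49585 genes measured. They were taken from a fixed list of symbols in which 18 belong to a sterol branch and 16 to a fatty acid branch, and all 34 were matched by gene identifier and passed the filter on low values, Thrsp only through its RD7 libraries. They were compared between 3 culture media in organoids grown for 5 days from flow-sorted prostate basal cells of C57BL/6J mice, with 3 libraries in each medium. RD7 held R-spondin1 at 500 ng/ml and dihydrotestosterone (DHT, the potent androgen) at 100 nM, R held R-spondin1 alone at 500 ng/ml, and BM held neither. R-spondin1 is a secreted protein that strengthens the response of cells to Wnt ligands. All 3 media shared advanced DMEM/F12 with B27, HEPES, GlutaMAX, antibiotics, N-acetylcysteine, EGF at 50 ng/ml, Noggin at 100 ng/ml, the TGF-β receptor inhibitor A83-01 at 200 nM and the ROCK inhibitor Y-27632 at 10 μM. No medium held DHT without R-spondin1, so RD7 against R gives the response to DHT in the presence of R-spondin1 only. The labels do not say whether the 3 libraries of a medium came from separate animals or cultures, so p-values measure the spread between these libraries.

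Cholesterol is built from acetyl-CoA through the mevalonate pathway, which yields isoprenoid units that are joined to squalene, closed to lanosterol and trimmed to cholesterol. Fatty acids are built from the same acetyl-CoA, which citrate carries out of the mitochondrion, and are then elongated, desaturated and stored as triglycerides. The transcription factors SREBP2 and SREBP1, encoded by Srebf2 and Srebf1, drive the sterol and the fatty acid branch, and they are held in the endoplasmic reticulum by Insig proteins when sterols are plentiful. In human prostate cancer cell lines, androgens are known to raise SREBP processing and lipid synthesis genes.

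The 250 bases before the start are shown for 5 genes, 1 with the SREBP-binding letters TCACNCCAC and the 2 of each branch with the largest changes. Idi1 (log2 fold change -0.89 in RD7 against BM) tied with Sc5d (-0.89 in RD7 against R) as rounded, and Sc5d is not shown. The sequences are from RefSeq, build GRCm38.p6, and run 5′ to 3′ on the gene's own strand. Capitals mark the sterol regulatory element and the CCAAT box, the letters bound by NF-Y, a partner of SREBP, read on either strand.
Hmgcs1 (chr13:119690101-119690350, plus strand): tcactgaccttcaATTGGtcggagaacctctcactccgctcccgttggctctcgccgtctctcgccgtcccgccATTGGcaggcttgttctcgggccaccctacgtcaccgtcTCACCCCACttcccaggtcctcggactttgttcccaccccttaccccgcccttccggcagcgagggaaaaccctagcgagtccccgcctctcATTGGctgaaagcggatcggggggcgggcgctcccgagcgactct
Idi1 (chr13:8885356-8885605, plus strand): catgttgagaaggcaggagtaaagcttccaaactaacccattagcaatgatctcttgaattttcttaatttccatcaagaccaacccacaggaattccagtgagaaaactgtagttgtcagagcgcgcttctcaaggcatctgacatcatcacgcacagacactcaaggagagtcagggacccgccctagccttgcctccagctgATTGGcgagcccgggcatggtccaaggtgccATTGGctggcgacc
Pmvk (chr3:89454291-89454540, plus strand): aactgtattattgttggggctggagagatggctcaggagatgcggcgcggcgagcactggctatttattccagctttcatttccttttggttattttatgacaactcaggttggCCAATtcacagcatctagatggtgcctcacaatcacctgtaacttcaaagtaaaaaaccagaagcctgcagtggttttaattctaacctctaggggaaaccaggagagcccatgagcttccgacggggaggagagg
Thrsp (chr7:97417551-97417800, minus strand): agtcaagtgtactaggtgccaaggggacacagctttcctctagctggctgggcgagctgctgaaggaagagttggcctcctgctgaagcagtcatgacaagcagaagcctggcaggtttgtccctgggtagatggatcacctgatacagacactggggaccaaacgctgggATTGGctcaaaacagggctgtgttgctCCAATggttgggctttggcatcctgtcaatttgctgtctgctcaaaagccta
Acly (chr11:100528001-100528250, minus strand): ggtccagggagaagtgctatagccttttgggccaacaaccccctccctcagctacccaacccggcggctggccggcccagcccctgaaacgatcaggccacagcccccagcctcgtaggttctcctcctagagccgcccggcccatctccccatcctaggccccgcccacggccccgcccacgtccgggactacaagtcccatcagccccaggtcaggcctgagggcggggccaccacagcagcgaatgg

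The Hmgcs1 stretch held the sterol regulatory element 137 bases before the start, between CCAAT boxes. The Pmvk stretch belongs to the 5′-most of its 2 starts. Promoters of 26 of the 34 genes were found, 14 sterol and 12 fatty acid, and each was searched on both strands from 250 bases before to 50 after the start. None of the motifs searched contains another. TCACNCCAC stood in 1 of the 26, against 1.44% of the 27025 genes with a promoter. CCAAT stood in 13 of 14 sterol and 8 of 12 fatty acid genes, against 41.1% of all genes, and the GC box GGGCGG in 13 of 14 and 7 of 12, against 38.2%. The full consensus of the androgen response element stood in 0 of 26, against 0.0111% of all genes, and the TCF letters CTTTGAT in 0 of 26, against 4.29%. Genes with several starts count as holding a motif where any start does, and a match or its absence in this window says nothing about binding.

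Libraries held 16894535 to 19102843 counted reads in RD7, 15961445 to 23256007 in R, and 6505859 to 24141016 in BM, with BM 1 the shallowest. Basal markers were abundant in all 9 libraries: the summed level of 8 basal genes, Krt5 and Krt14 among them, was 8477 to 9517 FPKM in RD7, 9922 to 10479.7 FPKM in R, and 7326 to 8211 FPKM in BM. The sum of 10 luminal markers was 3919 to 4913 FPKM in RD7, 2776 to 3266 FPKM in R, and 3513 to 4508 FPKM in BM, and 6 of the 10 rose and 2 fell in RD7 against R, 5 rose and 2 fell in RD7 against BM, and 0 rose and 2 fell in R against BM. Pbsn, with 0 to 2 reads in each R and BM library, is among the 6 and the 5 that rose. It passed the filter only through its RD7 libraries, so its place in these counts was fixed by the filter. Of the 8 basal markers 1 rose and 4 fell in RD7 against R, 2 rose and 4 fell in RD7 against BM, and 2 rose and 0 fell in R against BM, the shares of all genes being 13.4% higher and 17.7% lower, 21.6% and 25.4%, and 4.38% and 5.64% in the same order. In bulk libraries, fewer cells of a type and less RNA per cell cannot be told apart, and the part of these markers in the lipid genes was not tested. Of 7 adipocyte markers, Adipoq, Plin1, Cfd, Lep and Retn stood at 0 in all 9 libraries, and the list summed to at most 0.113 FPKM in RD7, 0.165 FPKM in R and 0.173 FPKM in BM. Of 7 sebocyte markers, Awat1 and Mc5r stood at 0, while the sum was 7.44 to 7.72 FPKM in RD7, 4.13 to 4.49 FPKM in R, and 4.97 to 5.33 FPKM in BM. Only 4 of the 7 were tested, and 2 of these (Scd3 and Plin5) were higher in RD7 against both other media. The sum of 9 mesenchymal markers was 65.1 to 93.2 FPKM in RD7, 23.2 to 29.4 FPKM in R, and 16.0 to 24.7 FPKM in BM, with 1 marker (Dcn) higher and 5 lower in RD7 against R.

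Genes of both branches were lower in organoids given both factors than in basal medium, among them the HMG-CoA synthase Hmgcs1, the squalene epoxidase Sqle and the citrate lyase Acly, while Agpat2, Pmvk, Elovl1 and Mvk were higher. In RD7 against BM, 17 of the 34 fell and 6 rose, 67.6% in all, beside 47.0% of all 15868 genes tested (25.4% lower and 21.6% higher). Their median log2 fold change was -0.56, against -0.07 over all genes. In RD7 against R, 4 fell (Sqle, Sc5d, Elovl6 and Fads1) and 4 rose (Pmvk, Scd1, Thrsp and Agpat2), 23.5%, below the 31.1% of all genes (17.7% lower and 13.4% higher), with medians of -0.18 and -0.09. In R against BM, 3 fell (Cyp51, Me1 and Dgat2) and 0 rose, 8.82%, near the 10.0% of all genes (5.64% lower and 4.38% higher), with medians of -0.20 and 0.02. At an unadjusted p under 0.05, limma gave 2 of the 34 higher and 12 lower in R against BM, beside 13.8% and 12.1% of all genes, and limma-voom on reads read back from the FPKM called 0 higher and 4 lower, beside 3.93% and 5.82%. A gene is said to rise or fall where its limma p-value, adjusted over all genes tested, was under 0.05, and each fold change is a difference of mean log2(FPKM + 0.5) with its standard error. RD7 against BM is the sum of the other comparisons and shares its libraries with them. Thrsp is among the 6 and the 4 that rose, and since it passed the filter only where it is high, its place in these counts was fixed by the filter.

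The members can also be counted by whether the libraries of 2 media overlapped. All 3 RD7 libraries were below all 3 BM libraries for 17 of the 34 genes and above for 5, against 29.3% and 23.1% of all genes (52.4% in either direction). RD7 was below R for 11 and above for 6, against 30.1% and 21.7% (51.8% in either direction). Thrsp is among the 5 and the 6 above, and its place there was fixed by the filter. R was below BM for 15 and above for 2, against 14.4% and 15.9% (30.3% in either direction), so the share below was higher than that of all genes although only 3 of the 15 passed the test. The counts in R against BM moved with single libraries, as did those of all genes: without BM 3, 10 members fell and 2 rose (8.27% and 13.2% of all genes), adding Hmgcs1, Lss, Insig1, Acacb, Acly, Fads1 and Fads2 to the lower and Fdps and Elovl1 to the higher ones, and without BM 2, R 1, R 2 or R 3, 1 member (Cyp51) fell each time (3.52% to 4.47% of all genes). In RD7 against R, 2 members in place of 4 rose without R 3 and again without RD7 3, where 9.30% and 10.0% of all genes rose.

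**Figure D1:**
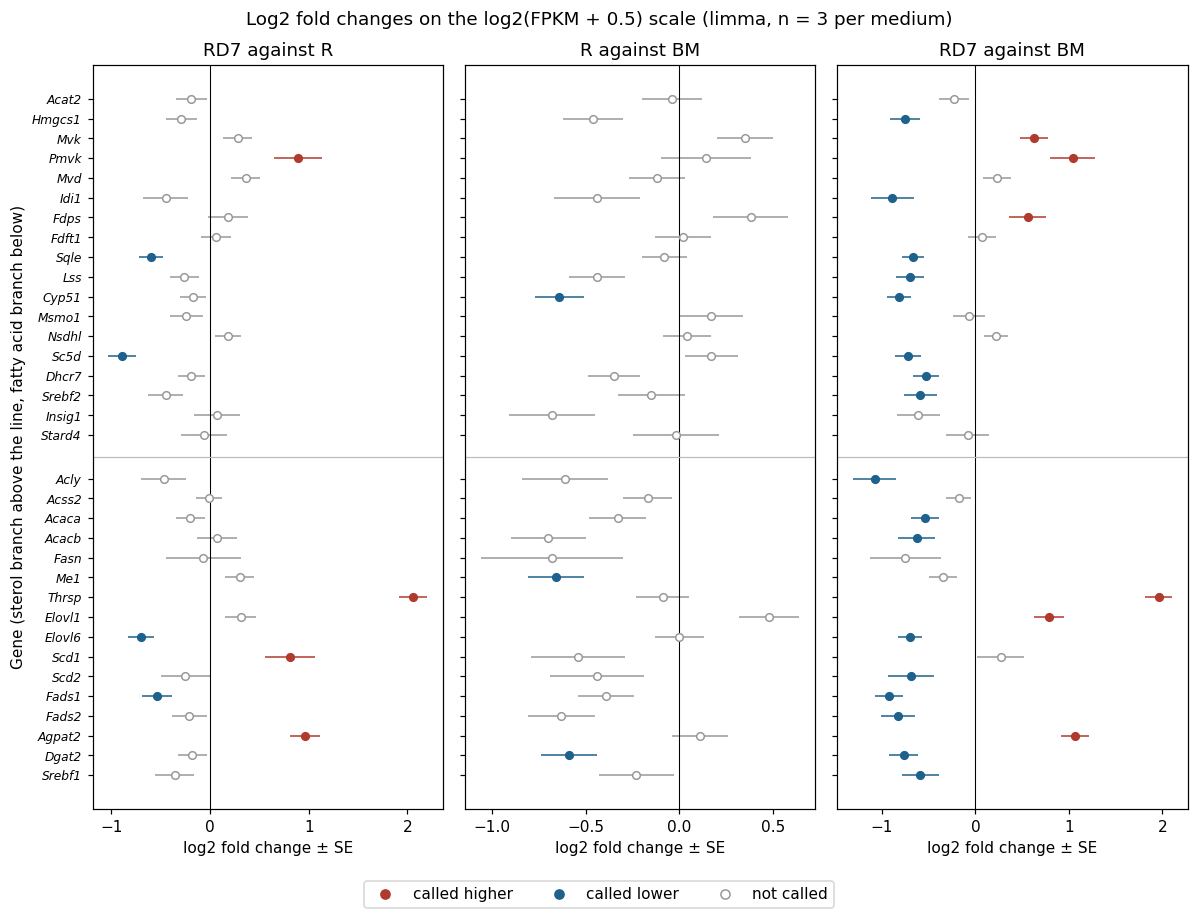
Log2 fold changes (log2(FPKM + 0.5) scale) of the 34 genes in RD7 against R, R against BM, and RD7 against BM, with bars for the standard error (n = 3 per medium) and filled points for adjusted p under 0.05. In RD7 against BM most points lie below 0, with Acly lowest at -1.08, while Thrsp, Agpat2 and Pmvk lie above 1.

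The first steps of the mevalonate pathway went both ways in RD7 against BM: Hmgcs1 and Idi1 fell, Mvk, Pmvk and Fdps rose, and Acat2 and Mvd did not pass the test. Hmgcs1 encodes the cytosolic HMG-CoA synthase, an early enzyme of the pathway. Hmgcs1 had 111, 87.4 and 105 FPKM in RD7, 121, 129.8 and 119.9 FPKM in R, and 153, 214 and 151 FPKM in BM. Every RD7 library was below every R library, and every R library below every BM library. The fall in RD7 against BM passed the test (log2 fold change -0.75 ± 0.16, limma adjusted p = 0.0049), while RD7 against R (limma adjusted p = 0.19) and R against BM (limma adjusted p = 0.11) did not. Idi1 encodes isopentenyl-diphosphate isomerase, which balances the isoprenoid building blocks. Idi1 stood at 18.3, 11.2 and 16.4 FPKM in RD7, 19.9, 22.1 and 20.2 FPKM in R, and 22.7, 39.2 and 25.3 FPKM in BM. The same order of media held without overlap, with BM 2 high above the other BM libraries. Idi1 fell in RD7 against BM (log2 fold change -0.89 ± 0.23, limma adjusted p = 0.011) but neither step alone passed, with log2 fold changes of -0.45 ± 0.23 in RD7 against R and -0.44 ± 0.23 in R against BM.

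The kinases between those enzymes rose in RD7 against BM. Mvk encodes mevalonate kinase. Mvk measured 28.7, 36.5 and 38 FPKM in RD7, 30.1, 28.1 and 26.2 FPKM in R, and 20.7, 20 and 25.2 FPKM in BM. BM lay below both other media, whose libraries overlapped. Mvk rose in RD7 against BM (log2 fold change 0.63 ± 0.15, limma adjusted p = 0.0079), and in R against BM it had a log2 fold change of 0.35 ± 0.15 (limma adjusted p = 0.17). Pmvk encodes phosphomevalonate kinase, the next enzyme of the pathway. Pmvk had 34, 50.7 and 45.7 FPKM in RD7, 26.8, 23.4 and 19 FPKM in R, and 19.6, 15.6 and 28.9 FPKM in BM. All RD7 libraries were above all others, RD7 1 being the lowest of them, and R and BM overlapped. Pmvk rose in RD7 against R (log2 fold change 0.89 ± 0.24, limma adjusted p = 0.017) and in RD7 against BM (log2 fold change 1.04 ± 0.24, limma adjusted p = 0.0067). The call against R was lost without R 3, RD7 2 or RD7 3, with adjusted p of at most 0.07. Its gene length of 1713 bases is among the shortest of the 34.

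Fdps encodes farnesyl-diphosphate synthase, whose product feeds squalene, dolichol and protein prenylation. Fdps reached 111, 142 and 154 FPKM in RD7, 129.9, 126 and 101 FPKM in R, and 80.8, 76.7 and 122 FPKM in BM. BM 3 overlapped RD7, and BM 1 and BM 2 were the lowest libraries. Fdps rose in RD7 against BM (log2 fold change 0.56 ± 0.20, limma adjusted p = 0.043), but the call was lost under 9 of 19 other settings (adjusted p of at most 0.14), 6 of which left out a single library (RD7 2, RD7 3, R 1, R 2, BM 1 or BM 2). Fdps shares 26.7% of its exon bases with another gene on the same strand, Gm43738, so its level is uncertain. Mvd, mevalonate diphosphate decarboxylase, averaged 61.4 ± 9.47 FPKM in RD7, 47.6 ± 4.8 in R and 51.8 ± 4.68 in BM (SD, n = 3 each), and Acat2, the acetyl-CoA acetyltransferase that opens the pathway, 60.7 ± 1.76, 69.6 ± 4.25 and 72.7 ± 17.3 FPKM in the same order. Neither passed the test in any comparison.

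Squalene is made by Fdft1 and closed to a sterol by Sqle and Lss, and here the last pair fell while Fdft1 did not pass the test. Fdft1 encodes squalene synthase, the first enzyme committed to sterols. Fdft1 had 96.4, 116 and 126 FPKM in RD7, 105, 118 and 102 FPKM in R, and 95.6, 104 and 122 FPKM in BM. The media overlapped throughout, and the log2 fold change in RD7 against BM was 0.07 ± 0.15 (limma adjusted p = 0.69). Of its exon bases 18.3% overlap Ctsb on the other strand, and the library kit does not mark strand, as also holds for 12.1% of Hmgcs1, 9.22% of Idi1 and 9.12% of Acss2. Sqle encodes squalene epoxidase, a rate-limiting enzyme of the pathway. Sqle stood at 65, 64.5 and 56.7 FPKM in RD7, 89.3, 101 and 91.9 FPKM in R, and 106, 97.8 and 93.1 FPKM in BM. All RD7 libraries were below all R and all BM libraries, which overlapped each other. Sqle fell in RD7 against R (log2 fold change -0.60 ± 0.12, limma adjusted p = 0.0044) and in RD7 against BM (log2 fold change -0.67 ± 0.12, limma adjusted p = 0.0019), while R against BM gave -0.08 ± 0.12 (limma adjusted p = 0.72). Lss encodes lanosterol synthase, which closes the ring. Lss measured 11.8, 9.97 and 10.7 FPKM in RD7, 12.4, 12.7 and 13.9 FPKM in R, and 19.8, 19.8 and 14.5 FPKM in BM. The media were ordered RD7, R, BM without overlap, although BM 3 came close to R 3. The fall passed the test in RD7 against BM alone (log2 fold change -0.70 ± 0.15, limma adjusted p = 0.0052), and it did not with the trend by gene length removed (adjusted p = 0.066).

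Of the enzymes that turn lanosterol into cholesterol, Cyp51, Sc5d and Dhcr7 fell in RD7 against BM, and Msmo1 and Nsdhl did not pass the test in any comparison. Cyp51 encodes lanosterol demethylase, the first of them. Cyp51 had 87.9, 85.6 and 77.4 FPKM in RD7, 93.1, 99.8 and 89.9 FPKM in R, and 144, 166 and 134 FPKM in BM. R and RD7 lay well below BM, and RD7 just below R. It was the 1 sterol gene called in R against BM (log2 fold change -0.64 ± 0.13, limma adjusted p = 0.0083), a call that held under each of the 19 other settings, and it fell in RD7 against BM (log2 fold change -0.82 ± 0.13, limma adjusted p = 8.0e-04). RD7 against R gave -0.17 ± 0.13 (limma adjusted p = 0.32). Sc5d encodes lathosterol oxidase, near the end of the pathway. Sc5d stood at 20.4, 19.4 and 17.8 FPKM in RD7, 34, 37.6 and 36 FPKM in R, and 27.4, 37.6 and 31.4 FPKM in BM. RD7 was below every other library, and R and BM overlapped. Sc5d had the lowest log2 fold change of the 34 in RD7 against R (log2 fold change -0.89 ± 0.14, limma adjusted p = 9.6e-04), and it also fell in RD7 against BM (log2 fold change -0.72 ± 0.14, limma adjusted p = 0.0029).

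Dhcr7 encodes the reductase of the last step to cholesterol. Dhcr7 measured 9.1, 8.21 and 7.61 FPKM in RD7, 8.71, 10.3 and 9.55 FPKM in R, and 13.4, 11.1 and 12.2 FPKM in BM. BM lay above both other media, and RD7 and R overlapped. The fall in RD7 against BM passed the test (log2 fold change -0.53 ± 0.14, limma adjusted p = 0.011), but not with the length trend removed (adjusted p = 0.14). Msmo1, a methylsterol oxidase, averaged 69.2 ± 7.86 FPKM in RD7, 81.9 ± 10.4 in R and 73.2 ± 13.4 in BM (SD, n = 3 each). Nsdhl, a sterol dehydrogenase of the same demethylation steps, averaged 33.9 ± 1.95 FPKM in RD7, 29.9 ± 2.85 in R and 29.2 ± 3.07 in BM.

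Among the regulators, Srebf2, which encodes SREBP2, fell in RD7 against BM. Srebf2 had 94.1, 64.7 and 64.6 FPKM in RD7, 94.6, 95.3 and 112 FPKM in R, and 133, 100.2 and 103 FPKM in BM. RD7 1 was close to R 1 and R 2, while RD7 2 and RD7 3 were far below all other libraries. The fall against BM (log2 fold change -0.59 ± 0.18, limma adjusted p = 0.022) was lost under 5 of 19 other settings (adjusted p of at most 0.084). These were without BM 1, RD7 2 or RD7 3, with the length trend removed, and with only the 2 groups compared. RD7 against R did not pass (limma adjusted p = 0.082). Insig1, the sterol-responsive anchor of SREBP, was chosen here after its values were seen. Insig1 stood at 25.2, 20.7 and 17.4 FPKM in RD7, 18.2, 21 and 20.5 FPKM in R, and 25.4, 47.7 and 27.2 FPKM in BM. BM 2 was far above the rest, every BM library was above every RD7 and R library, and the difference narrowly missed the threshold in RD7 against BM (log2 fold change -0.61 ± 0.23, limma adjusted p = 0.051). Stard4, a sterol carrier, averaged 15.8 ± 0.443 FPKM in RD7, 16.7 ± 3.86 in R and 17.2 ± 5.41 in BM and was not called in any comparison.

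**Figure D2:**
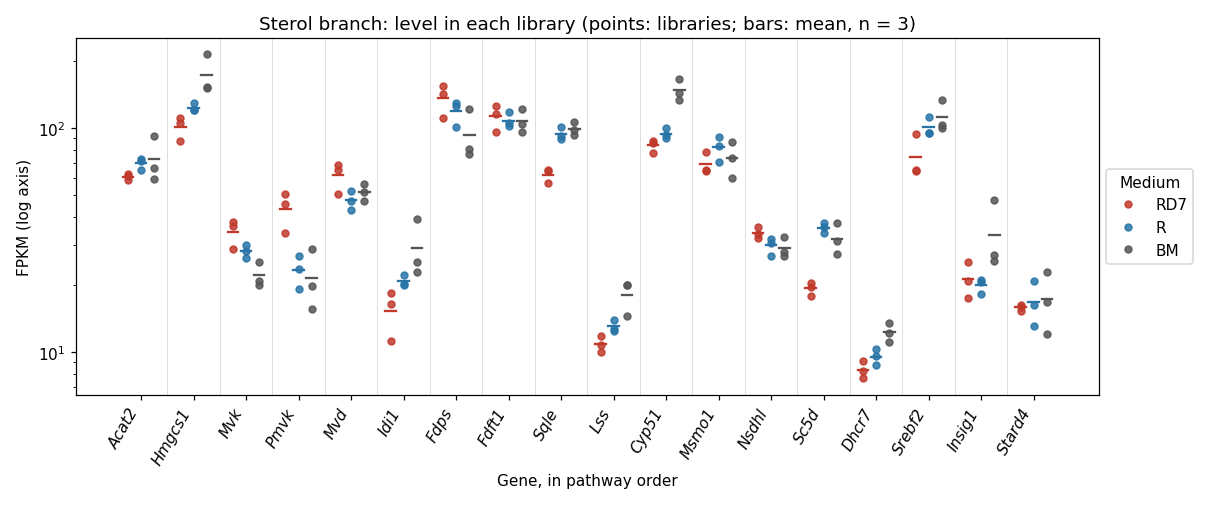
Levels of the 18 sterol genes in each library (FPKM, log axis), with RD7, R and BM libraries as points and group means as bars. Sqle, Sc5d, Hmgcs1, Idi1, Lss, Cyp51 and Srebf2 sit lower in all 3 RD7 libraries than in any other, Cyp51 and Srebf2 only just. Pmvk sits higher.

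Of the genes that supply fatty acid synthesis, Acly fell in RD7 against BM, Me1 fell in R against BM, and Acss2 did not pass the test. Acly encodes ATP-citrate lyase, which makes cytosolic acetyl-CoA for both branches. Acly had 93.8, 59.6 and 57.6 FPKM in RD7, 92.4, 85.7 and 109 FPKM in R, and 157, 178 and 111 FPKM in BM. BM was above both other media, while RD7 1 overlapped R. Acly had the lowest log2 fold change of the 34 in RD7 against BM (log2 fold change -1.08 ± 0.23, limma adjusted p = 0.0044), but neither R against BM (-0.61 ± 0.23, limma adjusted p = 0.13) nor RD7 against R (-0.47 ± 0.23, limma adjusted p = 0.14) passed. Me1 encodes malic enzyme, a source of NADPH. Me1 stood at 28.5, 26.3 and 23.3 FPKM in RD7, 19.7, 22.2 and 20.9 FPKM in R, and 32, 40 and 28.8 FPKM in BM. R was the lowest medium, and RD7 lay between R and BM without overlap. Me1 fell in R against BM (log2 fold change -0.66 ± 0.15, limma adjusted p = 0.018), a call lost without BM 2, R 1, R 2 or R 3 (adjusted p of at most 0.094), and RD7 was not called against R (limma adjusted p = 0.15) or BM (limma adjusted p = 0.073). With the length trend removed, Me1 was called higher in RD7 against R (adjusted p = 0.031). Acss2, which makes acetyl-CoA from acetate, averaged 7.1 ± 0.594 FPKM in RD7, 7.12 ± 0.223 in R and 8.1 ± 0.803 in BM (SD, n = 3 each) and was not called.

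The chain is then built by acetyl-CoA carboxylase and fatty acid synthase. Fasn, the synthase itself, was chosen here after its values were seen, because its libraries differed so widely within a medium. Fasn had 54.9, 17.3 and 33 FPKM in RD7, 31.2, 25.1 and 46.9 FPKM in R, and 70.1, 46.8 and 46.7 FPKM in BM. RD7 1 was above all R libraries while RD7 2 was the lowest of the 9, and no comparison passed (-0.75 ± 0.38 in RD7 against BM, limma adjusted p = 0.12). Acaca encodes the main cytosolic carboxylase, whose product malonyl-CoA feeds the synthase. Acaca measured 1.37, 1.21 and 1.33 FPKM in RD7, 1.47, 1.41 and 1.88 FPKM in R, and 2.21, 2.23 and 1.93 FPKM in BM. RD7 was below R and R below BM without overlap. The fall in RD7 against BM passed (log2 fold change -0.54 ± 0.15, limma adjusted p = 0.014), but not with the length trend removed (adjusted p = 0.48), and its gene length of 17074 bases is the longest of the 34. Acacb, the mitochondrial form, was near the lower limit of the data. Acacb stood at 0.128, 0.321 and 0.111 FPKM in RD7, 0.13, 0.0893 and 0.235 FPKM in R, and 0.957, 0.426 and 0.371 FPKM in BM. BM 1 was far above every other library, and BM lay above both other media. The fall in RD7 against BM (log2 fold change -0.63 ± 0.20, limma adjusted p = 0.026) rested on 99 reads in RD7 and 229 in BM. The call was lost without BM 1, RD7 1 or RD7 3, with the length trend removed, and with no filter (adjusted p of at most 0.38).

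Thrsp encodes Spot 14, a small protein that is induced with lipogenesis in liver. Thrsp had 1.61, 2.06 and 1.97 FPKM in RD7, 0.114, 0.0786 and 0.0211 FPKM in R, and 0.211, 0.0568 and 0.0699 FPKM in BM. Every RD7 library was far above every R and BM library, which overlapped near 0. The reads behind it, summed over libraries, were 222 in RD7, 9 in R and 9 in BM, a ratio of read rates of 27.9 in RD7 against R with a 95% interval of 14.4 to 61.7 that covers counting error only. No R or BM library reached 0.5 CPM, so Thrsp entered the test through RD7 alone and had to differ, and its fold changes are a description: 2.06 ± 0.14 in RD7 against R and 1.96 ± 0.14 in RD7 against BM on the log2(FPKM + 0.5) scale, which understates the ratio.

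Elongation and desaturation genes differed in direction. Elovl6 encodes the elongase of saturated chains. Elovl6 had 9.77, 9.18 and 10.2 FPKM in RD7, 15.2, 16.6 and 16.7 FPKM in R, and 17, 14.4 and 17.2 FPKM in BM. RD7 was below every other library, and R and BM overlapped. Elovl6 fell in RD7 against R (log2 fold change -0.70 ± 0.13, limma adjusted p = 0.0021) and in RD7 against BM (log2 fold change -0.70 ± 0.13, limma adjusted p = 0.0019). Elovl1, the elongase of very long saturated chains, went the other way. Elovl1 measured 64.9, 76.6 and 83.9 FPKM in RD7, 61.8, 66.1 and 53.3 FPKM in R, and 40.4, 37.5 and 53 FPKM in BM. BM was below both other media, and RD7 1 overlapped R. Elovl1 rose in RD7 against BM (log2 fold change 0.79 ± 0.16, limma adjusted p = 0.0045), with 0.48 ± 0.16 in R against BM (limma adjusted p = 0.11).

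Fads1 and Fads2 encode the front-end desaturases of polyunsaturated fatty acids. Fads1 had 38.1, 28.2 and 31.3 FPKM in RD7, 45.7, 46.5 and 49 FPKM in R, and 65.4, 67.9 and 53.5 FPKM in BM. The media were ordered RD7, R, BM without overlap. Fads1 fell in RD7 against R (log2 fold change -0.54 ± 0.15, limma adjusted p = 0.02) and in RD7 against BM (log2 fold change -0.93 ± 0.15, limma adjusted p = 9.4e-04), the first of these lost without R 1, R 2, R 3, RD7 2 or RD7 3 (adjusted p of at most 0.081). Fads2 stood at 69.1, 59.8 and 61.7 FPKM in RD7, 67.9, 69.5 and 83.3 FPKM in R, and 127, 134 and 85.4 FPKM in BM. BM was above both other media, BM 3 only just, and RD7 and R overlapped. Fads2 fell in RD7 against BM (log2 fold change -0.83 ± 0.18, limma adjusted p = 0.005), and R against BM had -0.63 ± 0.18 (limma adjusted p = 0.053).

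Scd1 and Scd2 encode stearoyl-CoA desaturases, which make monounsaturated fatty acids, and are paralogs, so that the split of reads between them is uncertain. Scd2 was the most abundant of the 34 genes. Scd2 had 269, 139 and 231 FPKM in RD7, 231, 215 and 292 FPKM in R, and 348, 393 and 266 FPKM in BM. RD7 1 overlapped BM 3 and RD7 2 was the lowest library. Its fall in RD7 against BM (log2 fold change -0.69 ± 0.25, limma adjusted p = 0.042) was lost under 11 of 19 other settings (adjusted p of at most 0.15), namely with the length trend removed, the leaving out of RD7 2, RD7 3, R 1, R 2, BM 1 or BM 2, and 4 more. Scd1 measured 42.1, 24.4 and 30.9 FPKM in RD7, 17.2, 16.8 and 19.6 FPKM in R, and 22.9, 38.8 and 20 FPKM in BM. Every RD7 library was above every R library, and BM 2 lay within the range of RD7. Scd1 rose in RD7 against R (log2 fold change 0.81 ± 0.25, limma adjusted p = 0.035), a call lost under 7 of 19 other settings (adjusted p of at most 0.1). These were without R 1, R 2, R 3, RD7 1 or RD7 3, with no filter, and with a replicate block. Scd1 was not called in RD7 against BM (limma adjusted p = 0.39).

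The triglyceride enzymes also went in opposite directions. Agpat2 encodes the acyltransferase that makes phosphatidic acid. Agpat2 had 37.6, 44.8 and 40.1 FPKM in RD7, 20.9, 21.7 and 19.7 FPKM in R, and 17.7, 16.8 and 23.6 FPKM in BM. All RD7 libraries were above every other library, and R and BM overlapped. Agpat2 rose in RD7 against R (log2 fold change 0.96 ± 0.15, limma adjusted p = 9.2e-04) and in RD7 against BM (log2 fold change 1.07 ± 0.15, limma adjusted p = 4.3e-04), both under every other setting tried. Dgat2 encodes an enzyme of the last step to triglyceride. Dgat2 stood at 9.55, 8.9 and 7.91 FPKM in RD7, 9.47, 10.6 and 9.94 FPKM in R, and 18.4, 14.5 and 13.5 FPKM in BM. BM was above both other media, and RD7 and R overlapped. Dgat2 fell in R against BM (log2 fold change -0.59 ± 0.15, limma adjusted p = 0.03) and in RD7 against BM (log2 fold change -0.77 ± 0.15, limma adjusted p = 0.0028), the call in R against BM being lost under 8 of 19 settings, including without BM 1, BM 2, R 1, R 2 or R 3.

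Srebf1, which encodes SREBP1, fell in RD7 against BM. Srebf1 had 46.8, 32.6 and 30 FPKM in RD7, 42.5, 42.8 and 53.2 FPKM in R, and 66.9, 50.6 and 46.3 FPKM in BM. RD7 1 overlapped BM 3, while RD7 2 and RD7 3 were the lowest libraries. The fall (log2 fold change -0.59 ± 0.20, limma adjusted p = 0.035) was lost under 8 of 19 other settings (adjusted p of at most 0.13). These were without BM 1, BM 2, R 2, RD7 2 or RD7 3, with the length trend removed, with no filter, and with only the 2 groups compared.

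**Figure D3:**
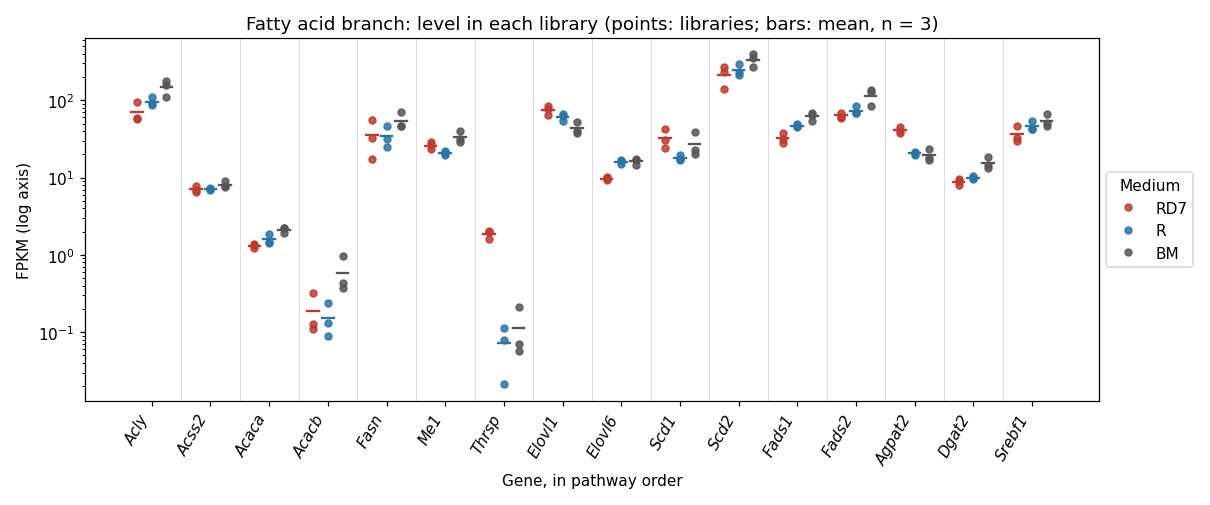
Levels of the 16 fatty acid genes in each library (FPKM, log axis), with RD7, R and BM libraries as points and group means as bars. Thrsp and Agpat2 sit above all other libraries in RD7. Elovl6, Fads1 and Acaca sit below them, Acaca only just, and Fasn varies widely within each medium.

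The branches are set side by side by counts and medians, and the difference between them was not tested. In RD7 against BM, 8 of 18 sterol genes fell and 3 rose (median log2 fold change -0.38), and 9 of 16 fatty acid genes fell and 3 rose (median -0.61). Of all genes 25.4% fell and 21.6% rose (median -0.07). In RD7 against R, 2 sterol genes fell and 1 rose (median -0.18), and 2 fatty acid genes fell and 3 rose (median -0.13). These were 16.7% of the sterol and 31.2% of the fatty acid genes, beside 31.1% of all genes (17.7% lower and 13.4% higher, median -0.09). Thrsp is among the fatty acid genes that rose in both comparisons, as the filter had fixed. In R against BM, 1 sterol gene fell (median -0.06) and 2 fatty acid genes fell (median -0.42), with no rise in either branch under limma or limma-voom. These were 5.56% and 12.5% of the branches, beside 10.0% of all genes (5.64% lower and 4.38% higher, median 0.02). The summed level of the sterol genes was 963 ± 27.4 FPKM in RD7, 1035 ± 51.5 FPKM in R and 1143 ± 58.9 FPKM in BM (SD, n = 3 each). The fatty acid genes summed to 654 ± 118 FPKM in RD7, 698 ± 74.2 FPKM in R and 937 ± 143 FPKM in BM, where Scd2 alone is a large share. Without Scd1 and Scd2 the sums were 409 ± 47.4, 434 ± 32.6 and 575 ± 74.7 FPKM in the same order. All 3 RD7 libraries had a lower sterol sum than any BM library, while R overlapped both. The full fatty acid sums of all 3 media overlapped, BM 3 standing at 774 FPKM beside 774 FPKM in RD7 1 and 784 FPKM in R 3. Without Scd1 and Scd2, every BM library was above every R and RD7 library. The lowest BM library then stood at 489 FPKM, and the highest at 472 FPKM in R and 463 FPKM in RD7.

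The fold changes moved with gene length over the whole data set. Across the 15868 genes tested, Spearman's rho of log2 fold change with gene length was -0.38 in RD7 against BM, -0.22 in RD7 against R and -0.33 in R against BM, and genes are not independent replicates. In RD7 against BM the median log2 fold change was 0.38 for genes under 2000 bases and -0.39 from 7000 bases. The 6 lipid genes that rose had lengths of 1713 to 4208 bases (median 2432), and the 17 that fell 1508 to 17074 bases (median 5279). With the trend removed, 11 in place of 17 fell and 6 rose in RD7 against BM, where 20.9% of all genes fell and 22.6% rose. Lss, Dhcr7, Srebf2, Scd2, Acaca, Acacb and Srebf1 were lost and Insig1 was gained. Among those that kept their call were Hmgcs1, Sqle, Idi1, Cyp51, Sc5d, Acly, Elovl6, Fads1, Fads2 and Dgat2 below BM, and Fdps, Mvk, Pmvk, Elovl1, Thrsp and Agpat2 above it. The place of Thrsp here and in the other counts by length was fixed by the filter. Within the class of 3000 to 4000 bases, 4 of 6 lipid genes fell and 0 rose (median -0.76), where 25.7% of all genes fell and 21% rose (median -0.06). Within the class of 2000 to 3000 bases the direction was the opposite, as 4 of 7, Thrsp among them, rose and 0 fell (median 0.63), where 28.4% of all genes rose and 15.4% fell (median 0.11). The lengths of Hmgcs1, Fdft1, Srebf2, Scd1, Scd2, Fads1 and Fads2 were inferred from the deposited values, and 1508 bases for Fads2 is the shortest of the 34.

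**Figure D4:**
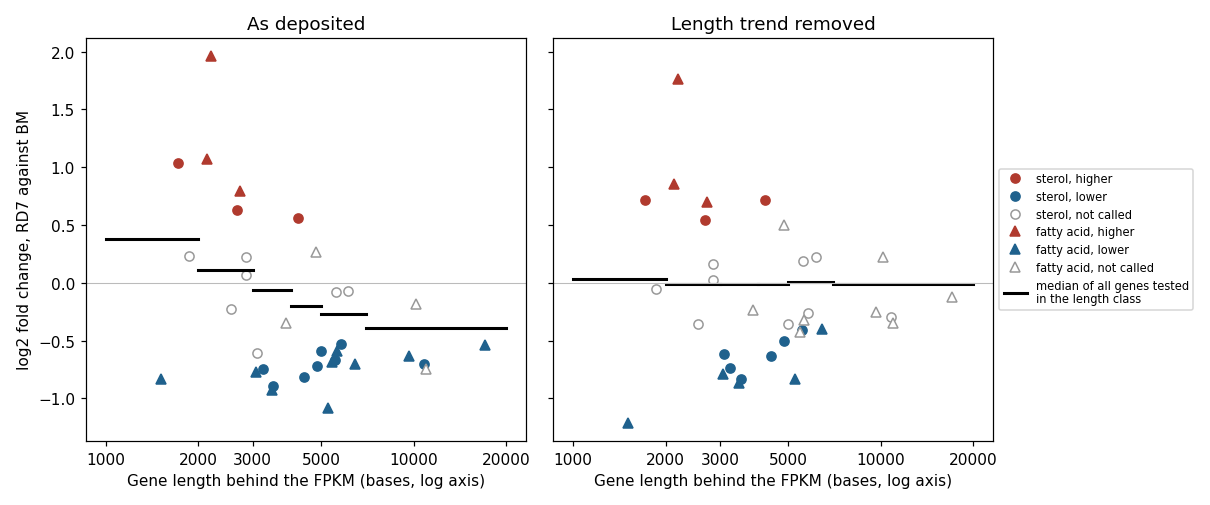
Log2 fold change against gene length (bases, log axis) in RD7 against BM, as deposited (left) and with the length trend removed (right). Points are the 34 lipid genes by branch and call, and black bars are medians of all genes tested in a length class, which run from 0.38 under 2000 bases to -0.39 from 7000 bases on the left.

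Lists of other lipid genes, chosen with earlier results known, held 85 genes, of which 84 were matched and 72 tested. In RD7 against BM 25 of the 72 fell and 18 rose, in RD7 against R 16 fell and 11 rose, and in R against BM 6 fell and 1 rose, beside the shares of all genes above. Of 7 other sterol enzymes tested, 3 fell and 3 rose in RD7 against BM, 85.7% in all, beside 47.0% of all genes. Hsd17b7, a sterol ketoreductase, fell in RD7 against R (log2 fold change -1.01 ± 0.18, limma adjusted p = 0.0019). Tm7sf2 and Ebp, later sterol enzymes, rose in RD7 against BM (log2 fold change 0.63 ± 0.15, limma adjusted p = 0.0087 for Tm7sf2 and log2 fold change 0.92 ± 0.25, limma adjusted p = 0.014 for Ebp), Ebp being lost without BM 1, BM 2 or RD7 2.

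Of 19 sterol-sensing genes tested, 7 fell and 3 rose in RD7 against BM, 52.6% in all, near the 47.0% of all genes. Most of the list leaned lower: 15 of the 19 had a log2 fold change below 0, with a median of -0.30 against -0.07 over all genes. Among the 3 that rose were Npc2, which exports cholesterol from the lysosome (log2 fold change 1.14 ± 0.18, limma adjusted p = 0.0011), and Ubxn4 (log2 fold change 0.72 ± 0.16, limma adjusted p = 0.0054). In R against BM 1 of the 19 fell (5.26%, beside 10.0% of all genes in either direction). This was Mylip, an E3 ubiquitin ligase induced by sterols (log2 fold change -0.49 ± 0.14, limma adjusted p = 0.048). The call was lost without RD7 1, RD7 3, R 1, R 2, R 3, BM 1 or BM 2. It was also lost with no filter, with limma-voom, with a replicate block, and with only the 2 groups compared.

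Of 22 other fatty acid genes tested, Elovl4, an elongase of very long chains, rose in R against BM (9.75 ± 0.991 FPKM in R and 2.83 ± 0.885 FPKM in BM; log2 fold change 1.65 ± 0.20, limma adjusted p = 4.1e-04) and fell in RD7 against R (log2 fold change -2.69 ± 0.20, limma adjusted p = 4.7e-06). In RD7 it averaged 1.09 ± 0.183 FPKM. Scd3, a desaturase that is also in the sebocyte list, and Acsl1, which activates fatty acids, rose in RD7 against R (log2 fold change 1.48 ± 0.12, limma adjusted p = 1.1e-05 for Scd3 and log2 fold change 1.27 ± 0.17, limma adjusted p = 2.9e-04 for Acsl1). Levels of Scd3 were low, with means of 1.39 ± 0.191 FPKM in RD7, 0.177 ± 0.0641 in R and 0.146 ± 0.0299 in BM. Acsl3 fell in RD7 against R (log2 fold change -1.34 ± 0.15, limma adjusted p = 1.1e-04). Of 13 glycerolipid and lipid droplet genes tested, Pparg, the receptor that drives fat storage in adipocytes, fell in each comparison. Its mean was 2.42 ± 0.356 FPKM in RD7, 5.93 ± 0.307 in R and 15.2 ± 1.41 in BM (SD, n = 3 each), with log2 fold change -1.14 ± 0.14, limma adjusted p = 2.1e-04 in RD7 against R and log2 fold change -1.29 ± 0.14, limma adjusted p = 2.4e-04 in R against BM. Plin3 and Agpat5 rose in RD7 against R (log2 fold change 0.74 ± 0.15, limma adjusted p = 0.0051 for Plin3 and log2 fold change 0.85 ± 0.15, limma adjusted p = 0.0019 for Agpat5). Of 11 fatty acid oxidation genes tested, 2 rose and 2 fell in RD7 against R (36.4%, beside 31.1% of all genes). In R against BM 3 fell (27.3%, beside 10.0% of all genes in either direction). Among the 3 was Cpt1a, the gatekeeper of mitochondrial import (log2 fold change -1.09 ± 0.22, limma adjusted p = 0.0096), a call lost without R 2.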

How the data were processed

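Polyadenylated RNA was measured in 9 libraries, 3 per medium, made with a Takara SmartSeq kit that keeps no strand information and uses no molecular identifiers. The authors deposited FPKM, reads scaled by gene length and library total, 1 value per gene and library, per the file headers. Per the submitters' processing notes, the mouse build was GRCm38 and the tools included featureCounts, STAR 2.6.1a, edgeR 3.24.1 and CASAVA 1.9; the role of each, the annotation and any filter are not given in the sources used here. Symbols were matched through GENCODE M21 (99.5% of identifiers). Reads were recovered by multiplying FPKM by gene length; annotated lengths gave whole reads (within 0.01) for 22971 of 26813 genes above 0, and 3806 lengths were fitted.

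A gene entered the test if 3 or more libraries reached 0.5 CPM, which left 15868. Groups followed the sample titles. The model was limma 3.58.1 (R 4.3.3) on log2(FPKM + 0.5) with a mean for each medium, 6 residual degrees of freedom, and trend and robust options; tests were two-sided with Benjamini-Hochberg adjustment. At 0 reads a gene could stand at up to 0.461 CPM in BM 1 and 0.188 CPM elsewhere (3 reads, counting error only). Members and lists were chosen with earlier results of these data known. Library values are given for members called in any comparison and the 4 most abundant of each branch; other lists name at most 2 called genes at either end of the fold changes per comparison, and some of these are not reported here. Python 3.11.15 made tables and plots.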

Additional observations from a re-analysis of the deposited data

How the results depend on the processing

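The 3 comparisons were repeated with other pseudocounts (0.1 and 1), filters and scalings, with limma-voom, with the length trend removed, with a replicate block, on the 2 groups compared alone, and without each library. No member that was called changed sign under any of these. In RD7 against BM, 11 in place of 17 members fell with the length trend removed (all genes 3309 in place of 4029). Leaving out 1 library at a time gave 5 to 6 members higher and 13 to 19 lower in RD7 against BM (all genes 2218 to 4075 and 2616 to 4444), 2 to 4 higher and 3 to 6 lower in RD7 against R (all genes 1401 to 2631 and 1710 to 3108), and 0 to 2 higher and 1 to 10 lower in R against BM (all genes 368 to 2088 and 559 to 1312). Deviations from the medium means, over the genes tested, had correlations of -0.521 to 0.272 between libraries with the same number. Between libraries with different numbers the correlations were -0.578 to 0.578. These deviations sum to 0 over the 3 libraries of a medium, so the correlations are not independent of each other. Whether a number marks a shared animal or day was not tested. The replicate block gave 5 members higher and 16 lower in RD7 against BM (Fdps and Scd2 lost), beside 2929 and 3368 of all genes. It gave 3 and 4 members in RD7 against R (Scd1 lost), beside 1739 and 2145 of all genes. For R against BM it gave 0 and 2 members (Dgat2 lost), beside 461 and 700 of all genes. A filter at a mean of 1 FPKM leaves Thrsp and Acacb untested. BM 1, with 6505859 reads, limits genes under 1 FPKM most.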
